A study of Homo sapiens with 12 samples.

Results

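RGS proteins (regulators of G-protein signalling) are GTPase-activating proteins that share an RGS domain. The set described here holds 10 RGS genes, RGS1, RGS2, RGS3, RGS4, RGS5, RGS10, RGS12, RGS16, RGS19 and RGS20, out of 26499 gene symbols counted. The members were chosen on the level of 2 of them in resistant against sensitive cells, a loss of RGS1 in SKMel28 cells and a rise of RGS4 in A375 cells, so the members' values in resistant against sensitive cells are given as a description, with no p-value. All 10 passed the filter on low counts, RGS1 only through the group in which it was high.

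A375 and SKMel28 are established human melanoma cell lines that carry an activating BRAF mutation, and vemurafenib is an inhibitor of that mutant kinase. The groups were A375 resistant cells kept in 1 µmol/L vemurafenib, A375 sensitive cells, SKMel28 resistant cells kept in 1 µmol/L vemurafenib and SKMel28 sensitive cells. No drug is named for sensitive cells, and all 4 groups were grown in DMEM with 10% fetal bovine serum. Each group had 3 libraries of poly(A)-enriched RNA, 12 in all. The labels name neither separate cultures nor clones, so the spread and the p-values measure differences between these libraries only. Resistance and the presence of the drug cannot be told apart in this design.

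When a receptor activates a heterotrimeric G protein, its alpha subunit binds GTP and parts from the beta-gamma pair. The RGS domain speeds GTP hydrolysis by the alpha subunit, which ends the signal. RGS1, RGS2, RGS3, RGS4, RGS5 and RGS16 belong to the R4 subfamily, mostly small proteins acting on Gi or Gq family subunits. RGS10 and RGS12 belong to the R12 subfamily, which acts on Gi family subunits, and RGS19 and RGS20 to the RZ subfamily, of which RGS20 prefers the alpha subunit Gz.

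The upstream sequences of RGS1 and RGS4, on whose levels the choice of members rests, and of RGS16, an R4 gene with few reads in SKMel28, are shown in the direction of transcription. They come from the RefSeq promoter table for GRCh38.p14, which held 9 of the 10 members, and were cut where the first transcript of GENCODE release 29 begins. The RGS1 stretch is chr1:192575523-192575726 on the plus strand, 204 bases, with a cyclic AMP response element half-site in capitals. The RGS4 stretch is chr1:163068621-163068774 on the plus strand, 154 bases before the first of 4 RefSeq starts, with an M-box core in capitals. The RGS16 stretch is chr1:182604409-182604639 on the minus strand, 231 bases, and has no capitals.
RGS1: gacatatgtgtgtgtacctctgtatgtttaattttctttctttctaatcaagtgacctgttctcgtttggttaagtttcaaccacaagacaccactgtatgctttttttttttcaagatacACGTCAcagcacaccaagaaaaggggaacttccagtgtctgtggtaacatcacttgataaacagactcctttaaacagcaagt
RGS4: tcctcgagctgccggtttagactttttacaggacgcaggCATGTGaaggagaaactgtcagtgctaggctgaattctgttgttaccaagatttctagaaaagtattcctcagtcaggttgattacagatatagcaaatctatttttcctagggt
RGS16: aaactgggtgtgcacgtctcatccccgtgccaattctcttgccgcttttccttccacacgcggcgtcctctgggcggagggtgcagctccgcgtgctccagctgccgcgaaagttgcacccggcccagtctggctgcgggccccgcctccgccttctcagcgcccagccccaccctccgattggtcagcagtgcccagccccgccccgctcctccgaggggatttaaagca

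The 250 bases before each RefSeq start were searched on both strands for 6 motifs. These were the TATA box as TATAAA, the AP-1 site as TGANTCA, the cyclic AMP response element half-site as TGACGT, the E-box as CACGTG, the M-box core as CATGTG and a SOX site as ACAATG. Positions count back from the RefSeq start, the base just before it being -1, and no match overlapped another. The RGS1 window held ACGTCA, the reverse complement of TGACGT, at -129 and TATAAA at -27, the second inside transcribed sequence of GENCODE and therefore not printed. The first RGS4 window held CATGTG at -211, the second a SOX match at -163 and the third TATAAA at -30. The RGS16 window held none of the 6, which says only that these letters are not in this window. Of 35116 promoter windows of the same length, 10.7% held TATAAA, 7.1% the half-site, 9.42% CATGTG and 9.29% the SOX letters, 6.57% held TGANTCA and 6.34% CACGTG.

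Depth was 28496518 to 37721363 gene reads per library. Correlations of log2 CPM were 0.991 to 0.995 within a group, 0.94 to 0.962 from resistant to sensitive libraries of the same line and 0.752 to 0.791 across lines. Of 8 melanocyte lineage markers, the summed level was 31.3 to 33.7 CPM in A375 resistant, 373 to 383 CPM in A375 sensitive, 10900 to 11100 CPM in SKMel28 resistant and 7270 to 7710 CPM in SKMel28 sensitive libraries. In A375 the sum differed mainly through SOX10, at 0.138 CPM in resistant and 325 CPM in sensitive cells, while TYRP1 and DCT were called higher (edgeR adjusted p below 0.05) in resistant cells at only 0.347 and 0.0402 CPM. In SKMel28 PMEL was at 6114 CPM in resistant and 4545 CPM in sensitive cells and TYRP1 at 2037 CPM in resistant and 218 CPM in sensitive cells, while SOX10, S100B and DCT were lower in resistant cells. TYR, the rate-limiting enzyme of melanin synthesis, had no read in A375 of either kind, and DCT had none in A375 sensitive cells. The summed level of 5 keratinocyte markers was 83.3 to 93.7 CPM in A375 resistant, 120 to 124 CPM in A375 sensitive, 28.5 to 34.1 CPM in SKMel28 resistant and 66.4 to 70.4 CPM in SKMel28 sensitive libraries, nearly all of it KRT10 and, in A375 sensitive cells, KRT14, while DSG3 was at 0 in 3 of the 4 groups. The part of these marker levels in the values below was not tested.

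RGS1, which acts on Gi and Gq and is best known for dampening chemokine receptor signals in lymphocytes, was present in only 1 of the 4 groups. It lies at chr1:192575727-192580031 on the plus strand (GRCh38, GENCODE release 29), as do the coordinates given for the genes that follow. It had no read in any library of A375 resistant, A375 sensitive or SKMel28 resistant cells. In the 3 SKMel28 sensitive libraries it had 31.7, 29.9 and 30.5 CPM (read counts scaled by library depth), 2777 reads in all. The mean there was 30.7 ± 0.945 CPM (SD, n = 3). With 3 reads over the SKMel28 resistant group as the floor, 0.0304 CPM, RGS1 was at least 1009-fold lower in SKMel28 resistant than in sensitive cells. Between the sensitive groups it was at least 1050-fold lower in A375 than in SKMel28. Without 1 of the SKMel28 resistant libraries the first bound was 657.9 to 684.3, since the floor then rests on fewer reads. Both bounds, like every floor here, cover counting error only. In bulk samples, fewer cells with a transcript and less transcript per cell cannot be told apart.

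Because RGS1 is known from lymphocytes, 8 lymphocyte markers were read beside it. Their summed level was 0.0326 to 0.37 CPM in the SKMel28 sensitive libraries that held RGS1, against 0.0292 to 0.154 CPM in SKMel28 resistant libraries. In SKMel28 sensitive cells PTPRC, CD3D, CD3E and CD2 had no read. In A375 the sums were 0.476 to 0.787 CPM in resistant and 0.0998 to 0.335 CPM in sensitive libraries.

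RGS4, a short-lived protein with activity towards Gi and Gq that is known mainly from brain and heart, reached its highest level in A375 resistant cells. It lies at chr1:163068775-163076802 on the plus strand. Its level was 61.3, 60.2 and 62.0 CPM in A375 resistant libraries, against 4.56, 3.99 and 4.42 CPM in A375 sensitive libraries. Every resistant library was far above every sensitive one, with a log2 fold change of 3.82 ± 0.09 (SE), or 14.1-fold. In SKMel28 it was close to the limit of detection in both groups. There it had 0.0307, 0.0315 and 0 CPM in resistant libraries, against 0.233, 0.202 and 0.358 CPM in sensitive libraries. These are 2 reads against 24, and the level in sensitive cells was 13.1 times that in resistant cells, with a 95% counting interval of 3.25 to 114. The SKMel28 groups did not overlap, but 2 reads leave the size of the difference poorly fixed. Between resistant cells, A375 exceeded SKMel28 by a ratio of 3020, with a 95% counting interval of 834 to 24900.

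**Figure D1:**
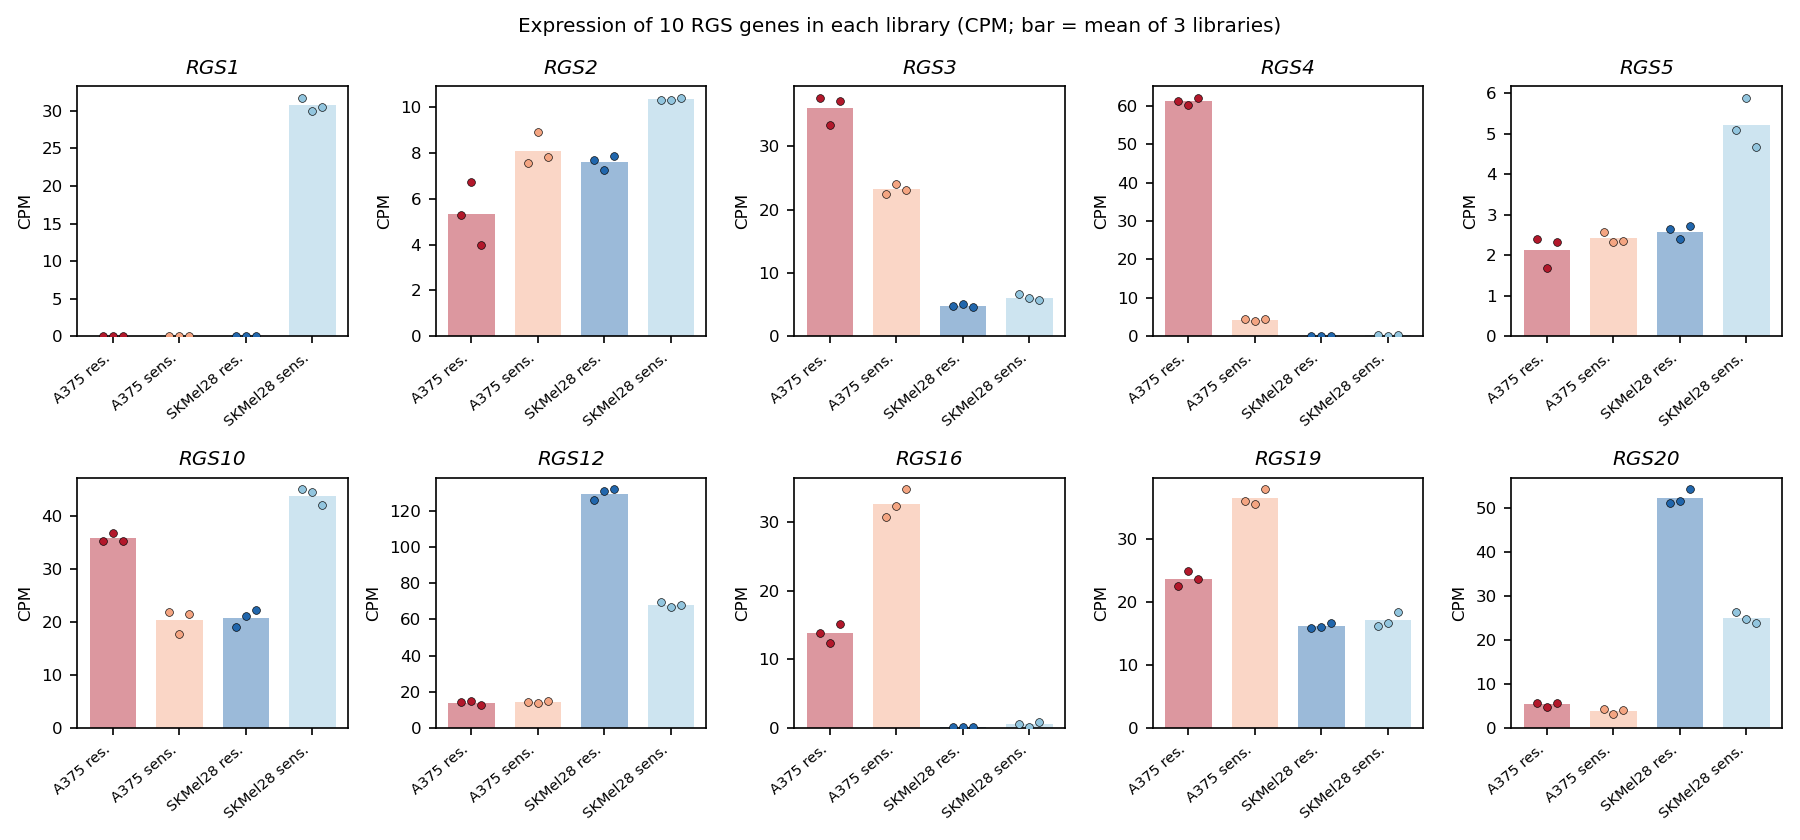
Level of each of the 10 RGS genes (y axis, CPM, from 0, each panel with its own scale) in the 12 libraries (points) of the 4 groups (x axis, res. resistant, sens. sensitive), with bars at the mean of 3 libraries. RGS1 is at 0 in 9 libraries and at 29.9 to 31.7 CPM in the SKMel28 sensitive ones, and RGS4 stands at 60.2 to 62 CPM in A375 resistant libraries.

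RGS16, an R4 protein acting on Gi and Gq that is known as an inducible gene of activated lymphocytes, was high in A375 and nearly absent in SKMel28. It lies at chr1:182598623-182604408 on the minus strand. Its level was 13.9, 12.4 and 15.1 CPM in A375 resistant libraries, against 30.8, 32.4 and 34.8 CPM in A375 sensitive libraries. The A375 groups were well apart, at a log2 fold change of -1.24 ± 0.10, so RGS16 was lower in the resistant cells in which RGS4 was higher. In SKMel28 it had 0.0614, 0.063 and 0.0583 CPM in resistant libraries, against 0.567, 0.168 and 0.814 CPM in sensitive libraries. The 6 and 47 reads behind these values give a level in sensitive cells 8.54 times that in resistant cells, with a 95% counting interval of 3.64 to 24.4.

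RGS2, which prefers Gq and is known for its part in blood pressure control, was lower in resistant cells of both lines by a small amount. It lies at chr1:192809039-192812283 on the plus strand. It had 5.28, 6.75 and 4.0 CPM in A375 resistant libraries, against 7.56, 8.9 and 7.81 CPM in A375 sensitive libraries (log2 fold change -0.60 ± 0.13). It had 7.71, 7.25 and 7.87 CPM in SKMel28 resistant libraries, against 10.3, 10.3 and 10.4 CPM in SKMel28 sensitive libraries (-0.44 ± 0.12). Neither pair of groups overlapped.

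RGS3 is the R4 member with long forms that carry a PDZ domain, and it lies at chr9:113444731-113597743 on the plus strand. It had 37.6, 33.3 and 37.1 CPM in A375 resistant libraries, against 22.4, 24.1 and 23.0 CPM in A375 sensitive libraries. In SKMel28 it had 4.76, 5.04 and 4.63 CPM in resistant libraries, against 6.6, 6.01 and 5.67 CPM in sensitive libraries. The groups were apart in both lines and in opposite directions, higher in resistant A375 (log2 fold change 0.64 ± 0.07) and lower in resistant SKMel28 (-0.34 ± 0.11).

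RGS5, known as a marker of pericytes, was low in all 4 groups. It lies at chr1:163111121-163321791 on the minus strand, where a second annotated locus of the same symbol shares its exons, so which transcript gave the reads is uncertain. It had 2.4, 1.69 and 2.33 CPM in A375 resistant libraries, against 2.57, 2.32 and 2.36 CPM in A375 sensitive libraries, and these groups overlapped (log2 fold change -0.17 ± 0.19). It had 2.64, 2.4 and 2.71 CPM in SKMel28 resistant libraries, against 5.1, 5.88 and 4.66 CPM in SKMel28 sensitive libraries, which lay wholly above (-1.01 ± 0.18). The sum of 7 pericyte and smooth muscle markers was 26.6 to 29.8 CPM in A375 resistant, 23.7 to 24.9 CPM in A375 sensitive, 4.38 to 4.98 CPM in SKMel28 resistant and 2.6 to 3.06 CPM in SKMel28 sensitive libraries. The sum of the 5 endothelial markers was 2.77 to 3.38 CPM in A375 resistant, 1.43 to 2.13 CPM in A375 sensitive, 2.67 to 3.53 CPM in SKMel28 resistant and 6.64 to 7.13 CPM in SKMel28 sensitive libraries. The genes of a list did not all run the same way. In SKMel28, ERG was at 1.62 CPM in resistant and 5.19 CPM in sensitive cells, ACTA2 at 2.85 CPM in resistant and 0.442 CPM in sensitive cells, and ABCC9 at 1.26 CPM in resistant and 2.06 CPM in sensitive cells. In A375, ACTA2 was at 11.4 CPM in resistant and 3.62 CPM in sensitive cells, KCNJ8 at 0.136 CPM in resistant and 2.61 CPM in sensitive cells and ABCC9 at 0.0373 CPM in resistant and 0.463 CPM in sensitive cells. The part of such cells in the level of RGS5 was not tested.

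Summed over the 6 R4 members, the level was 118 ± 3.53 CPM in A375 resistant cells, against 70.7 ± 2.43 CPM in A375 sensitive cells (SD, n = 3 each). In SKMel28 the sum was 15.1 ± 0.265 CPM in resistant cells, against 53.1 ± 1.22 CPM in sensitive cells. These sums are not scaled by length and hold RGS1 and RGS4, on whose levels the members were chosen, so nothing is read from their direction. Within the A375 sum members went opposite ways. The means of RGS4 (61.2 CPM in resistant against 4.33 CPM in sensitive cells) and RGS3 (36 CPM in resistant against 23.2 CPM in sensitive cells) were higher, and that of RGS16 (13.8 CPM in resistant against 32.7 CPM in sensitive cells) was lower. In SKMel28 RGS1 was at 0 in resistant cells, against 30.7 CPM of the sum in sensitive cells.

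RGS10, a small R12 protein acting on Gi family subunits and known from microglia and platelets, lies at chr10:119499828-119542708 on the minus strand. It had 35.4, 36.8 and 35.4 CPM in A375 resistant libraries, against 21.9, 17.7 and 21.6 CPM in A375 sensitive libraries. It had 19.0, 21.1 and 22.3 CPM in SKMel28 resistant libraries, against 45.1, 44.6 and 42.1 CPM in SKMel28 sensitive libraries. The log2 fold change was 0.81 ± 0.07 in A375 and -1.08 ± 0.07 in SKMel28, without overlap in either line. A375 resistant and SKMel28 sensitive cells therefore held the higher levels, and the remaining groups lay close to each other.

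RGS12, the large R12 member with PDZ, phosphotyrosine-binding and Ras-binding domains, lies at chr4:3293028-3439913 on the plus strand. It had 14.1, 14.9 and 12.9 CPM in A375 resistant libraries, against 14.4, 13.7 and 14.6 CPM in A375 sensitive libraries, with overlap (log2 fold change -0.03 ± 0.07). In SKMel28 it had 126, 131 and 132 CPM in resistant libraries, against 69.5, 67.1 and 68.1 CPM in sensitive libraries (0.93 ± 0.05). The difference between the SKMel28 groups was many times the spread within them.

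RGS19, also called GAIP, is an RZ member that acts on Gi family subunits, and it lies at chr20:64073181-64079988 on the minus strand. It had 22.5, 25.0 and 23.6 CPM in A375 resistant libraries, against 36.0, 35.6 and 37.9 CPM in A375 sensitive libraries (log2 fold change -0.62 ± 0.07). It had 15.9, 16.1 and 16.7 CPM in SKMel28 resistant libraries, against 16.2, 16.6 and 18.4 CPM in SKMel28 sensitive libraries (-0.07 ± 0.08). The A375 groups were apart and the SKMel28 groups overlapped.

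RGS20, the RZ member also called RGSZ1, lies on the long arm of chromosome 8. It had 5.7, 4.73 and 5.75 CPM in A375 resistant libraries, against 4.26, 3.23 and 4.06 CPM in A375 sensitive libraries (log2 fold change 0.48 ± 0.12). It had 51.3, 51.6 and 54.3 CPM in SKMel28 resistant libraries, against 26.4, 24.8 and 23.9 CPM in SKMel28 sensitive libraries (1.06 ± 0.07). It was the member that was higher in resistant cells of both lines without overlap.

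**Figure D2:**
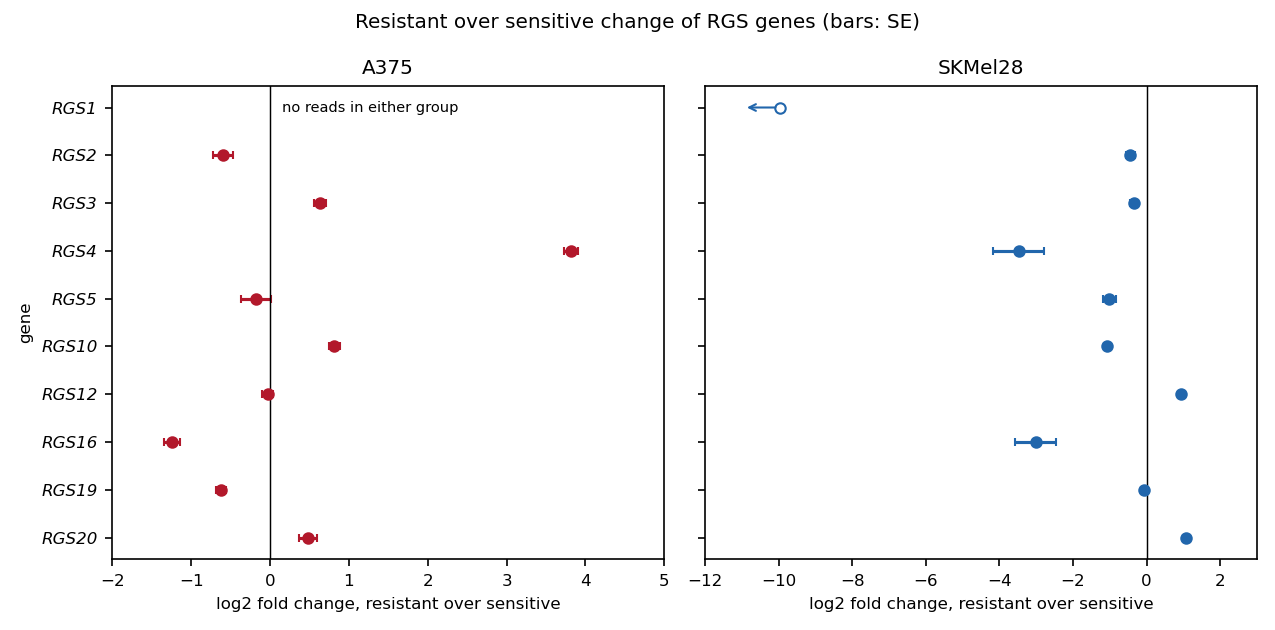
Fitted log2 fold change of each RGS gene, resistant over sensitive (x axis, with SE as bars), in A375 and in SKMel28 (y axis, gene; the panels differ in x range). RGS4 stands at 3.82 in A375, RGS1 in SKMel28 is an open point at its bound of 1009-fold lower with an arrow towards lower values, and RGS3, RGS4 and RGS10 lie on opposite sides of 0 in the 2 panels.

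In A375, 4 of the 10 members were higher in every resistant than in every sensitive library, 3 lower and 3 neither. Of all 15506 genes that passed the filter, 57.9% did not overlap there, 28.4% being higher and 29.5% lower. In SKMel28, 2 members were higher without overlap, 7 lower and 1 neither, beside 71.1% of all genes, 35.1% being higher and 36.0% lower. Since the choice of members used these contrasts, nothing is read from these counts. RGS2 and RGS16 were lower in resistant cells of both lines, RGS20 was higher in both, and RGS3, RGS4 and RGS10 were higher in resistant A375 and lower in resistant SKMel28. RGS5, RGS12 and RGS19 moved beyond the spread of their libraries in 1 line each.

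Levels of different genes were compared as CPM per kilobase of exon, since the exon lengths of the members ran from 1252 bases for RGS10 to 13793 bases for RGS3. These lengths join the exons of all annotated transcripts and can exceed that of the transcript in use, which was not determined. A gene with such a length is scaled down, so orders and shares between genes depend on this choice. In A375 resistant cells RGS10 stood at 28.6 ± 0.634 on this scale, RGS4 at 12.6 ± 0.186, RGS19 at 11.7 ± 0.611 and RGS16 at 5.68 ± 0.546 (SD, n = 3). RGS10 was apart from the others, the RGS4 range of 12.4 to 12.8 lay just above the RGS19 range of 11.1 to 12.3, and RGS3 at 2.61 and RGS2 at 2.55 overlapped. In A375 sensitive cells RGS19 stood at 18.0 ± 0.604, RGS10 at 16.3 ± 1.88 and RGS16 at 13.5 ± 0.81, while RGS4 at 0.895 was eighth. The ranges of RGS19 and RGS10 met there at 17.5, and those of RGS10 and RGS16 overlapped. RGS4 thus held 18.9% of the summed length-scaled level of the 10 members in A375 resistant cells, against 1.57% in A375 sensitive cells.

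In SKMel28 resistant cells RGS10 stood at 16.6 ± 1.32 CPM per kilobase, RGS20 at 16.4 ± 0.518, RGS12 at 9.44 ± 0.225 and RGS19 at 8.01 ± 0.19. RGS10 and RGS20 overlapped, so their order is not fixed by these libraries. In SKMel28 sensitive cells RGS10 stood at 35.1 ± 1.3 and held 50.0% of the summed level. RGS19 at 8.42 ± 0.591, RGS20 at 7.85 ± 0.398 and RGS1 at 7.46 ± 0.23 followed, and their ranges overlapped from one to the next. RGS12 at 4.96 and RGS2 at 4.93 could not be ordered either. RGS1 held 10.6% of the summed level in SKMel28 sensitive cells, against a level of 0 in SKMel28 resistant cells. Its joined exon length of 4117 bases covers nearly the whole gene, so a shorter transcript would give it a larger share.

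**Figure D3:**
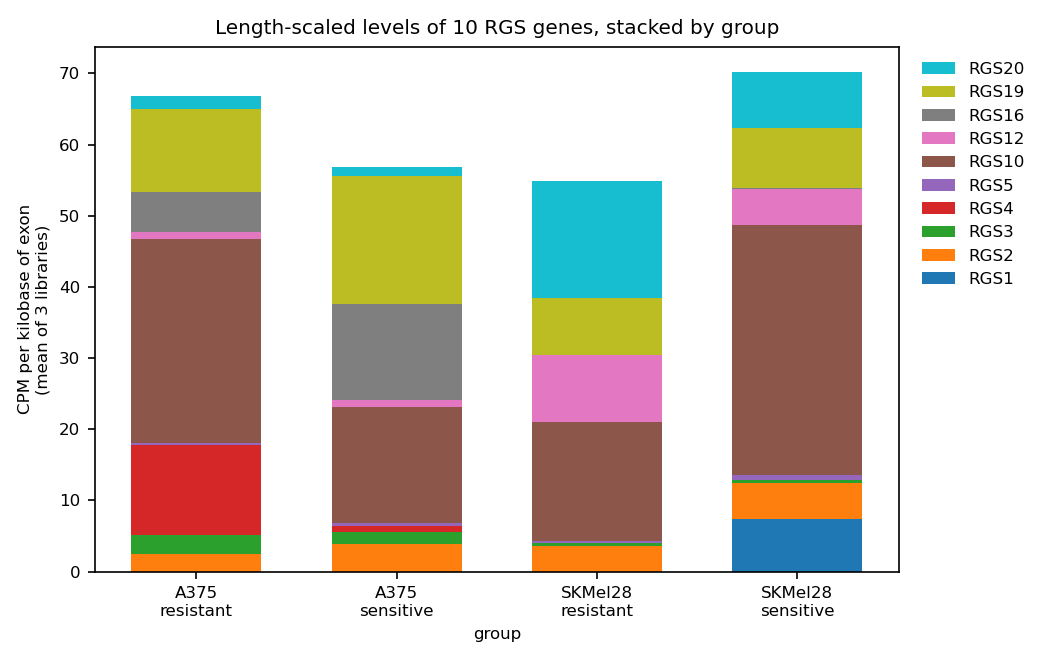
Length-scaled levels of the 10 RGS genes (y axis, CPM per kilobase of exon, mean of 3 libraries) stacked by group (x axis). RGS10 holds the largest block in A375 resistant and SKMel28 sensitive cells, with RGS10 and RGS19 side by side in A375 sensitive and RGS10 and RGS20 in SKMel28 resistant cells, RGS4 appears as a wide block in A375 resistant cells, and RGS1 in SKMel28 sensitive cells.

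The contrasts between the lines were not used to choose members other than RGS1 and RGS4, and the other 8 were tested there with edgeR. Between sensitive cells, 3 of the 8 were higher in A375 and 5 lower than in SKMel28, where 82.9% of all genes tested were called, 42.4% as higher and 40.5% as lower. Between resistant cells, 4 were higher in A375, 3 lower and 1 neither, where 85.3% of all genes were called, 42.6% as higher and 42.7% as lower. The members' counts are thus near the background of 2 lines that differ in most genes.

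RGS16 was higher in A375 by 7.74 ± 0.26 on the log2 scale between resistant cells (edgeR adjusted p = 1.8e-28) and by 5.96 ± 0.17 between sensitive cells (adjusted p = 2.66e-31). RGS3 was also higher in A375, by 2.90 ± 0.09 between resistant cells (edgeR adjusted p = 2.99e-30) and by 1.92 ± 0.09 between sensitive cells (adjusted p = 2.29e-23). RGS19 was higher in A375 by 0.55 ± 0.07 between resistant cells (edgeR adjusted p = 4.77e-09) and by 1.09 ± 0.07 between sensitive cells (adjusted p = 2.56e-18). These 3 members were higher in A375 in both comparisons.

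RGS20 and RGS12 were the members with far higher levels in SKMel28. The log2 difference of A375 from SKMel28 was -3.28 ± 0.09 for RGS20 (edgeR adjusted p = 7.34e-33) and -3.22 ± 0.06 for RGS12 (adjusted p = 7.08e-40) between resistant cells. Between sensitive cells it was -2.70 ± 0.10 for RGS20 (edgeR adjusted p = 8.07e-28) and -2.26 ± 0.06 for RGS12 (adjusted p = 1.76e-33). RGS2 was lower in A375 by a small amount, at -0.51 ± 0.13 between resistant cells (edgeR adjusted p = 0.000535) and -0.35 ± 0.12 between sensitive cells (adjusted p = 0.00847). With library size as the only scaling, the second of these was -0.20 (edgeR adjusted p = 0.12) and no longer called.

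RGS10 was higher in A375 between resistant cells, at 0.78 ± 0.07 (edgeR adjusted p = 1.24e-13), and lower in A375 between sensitive cells, at -1.11 ± 0.07 (adjusted p = 1.52e-18). RGS5 was lower in A375 between sensitive cells, at -1.10 ± 0.18 (edgeR adjusted p = 3.43e-07), and was not called between resistant cells, at -0.27 ± 0.19 (adjusted p = 0.189). The reversal for RGS10 follows from its opposite changes within the lines, described above.

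Of 14 other listed genes of the RGS family, or their binding proteins, 5 passed the filter on low counts. In resistant A375, 1 was called higher and 2 lower, with a median log2 fold change of -0.62. Over all genes the median was 0, and 51.3% were called, 25.0% as higher and 26.3% as lower. In SKMel28, 1 was called higher and 2 lower, with a median of -0.21. Over all genes the median was -0.01, and 70.0% were called, 34.2% as higher and 35.8% as lower. RGS14, an R12 member with a Ras-binding domain, fell in A375 to 3.15 ± 0.652 CPM in resistant cells, against 5.83 ± 0.27 CPM in sensitive cells (edgeR adjusted p = 0.00215). By DESeq2 that change was not called (adjusted p = 0.064). RGS14 was also called lower in resistant SKMel28, at 0.897 ± 0.234 CPM against 1.87 ± 1.03 CPM in sensitive cells (edgeR adjusted p = 0.00565). The SKMel28 libraries overlapped. RGS17, an RZ relative of RGS20, averaged 3.85 ± 0.35 CPM in A375 resistant cells and 2.35 ± 0.105 CPM in A375 sensitive cells (edgeR adjusted p = 0.00612). In SKMel28 it had 8 reads in resistant and 47 in sensitive cells. RGS7, of the R7 subfamily, averaged 3.37 ± 0.379 CPM in A375 resistant cells and 4.88 ± 0.339 CPM in A375 sensitive cells (edgeR adjusted p = 0.0205). In SKMel28 RGS7 averaged 0.393 ± 0.116 CPM in resistant cells and 0.111 ± 0.107 CPM in sensitive cells (edgeR adjusted p = 0.00249). RGS17 and RGS7 were chosen after their values were seen. Without A375 resistant replicate 1 or 3, 1 gene in place of 2 was called lower in A375, and without SKMel28 sensitive replicate 2, 1 in place of 2 was called lower in SKMel28.

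Of 16 G alpha subunit genes, 12 were tested. In resistant A375, 5 were called higher and 4 lower, with a median log2 fold change of 0.00, beside 51.3% of all genes called. In resistant SKMel28, 7 were called higher and 4 lower, with a median of 0.18, beside 70.0% of all genes called. GNAO1, the Go subunit, fell in A375 to 1.69 ± 0.338 CPM in resistant cells, against 6.73 ± 0.617 CPM in sensitive cells (edgeR adjusted p = 3.19e-16). GNAI1, a Gi subunit, rose in A375 to 27.8 ± 1.91 CPM in resistant cells, against 18 ± 1.39 CPM in sensitive cells (edgeR adjusted p = 1.36e-10). GNA12, another alpha subunit gene, fell in SKMel28 to 63.4 ± 1.81 CPM in resistant cells, against 123 ± 4.75 CPM in sensitive cells (edgeR adjusted p = 1.26e-22). GNAL, a Gs-type subunit, rose in SKMel28 to 8.68 ± 0.559 CPM in resistant cells, against 4.16 ± 0.499 CPM in sensitive cells (edgeR adjusted p = 1.43e-08).

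GNAZ, which encodes the Gz subunit that RGS20 prefers, and GNAI2, a Gi subunit gene, were chosen after their values were seen. GNAZ rose in A375 to 1.45 ± 0.218 CPM in resistant cells, against 0.617 ± 0.0755 CPM in sensitive cells (edgeR adjusted p = 2.85e-05). In SKMel28 it rose to 9.28 ± 0.396 CPM in resistant cells, against 4.65 ± 0.201 CPM in sensitive cells (edgeR adjusted p = 4.77e-08). Other alpha subunit genes were also higher in resistant cells of both lines. GNAI1 rose in SKMel28 as well, to 44.2 ± 0.583 CPM in resistant cells, against 37.6 ± 1.09 CPM in sensitive cells (edgeR adjusted p = 0.00095). GNAI2 rose to 404 ± 14.7 CPM in resistant against 352 ± 4.12 CPM in sensitive A375 cells (edgeR adjusted p = 7.1e-06) and to 261 ± 10.8 CPM in resistant against 234 ± 9.89 CPM in sensitive SKMel28 cells (adjusted p = 0.000215).

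Of 17 beta and gamma subunit genes 13 were tested, and 2 were called higher and 6 lower in resistant A375 (median log2 fold change -0.19), 4 higher and 4 lower in resistant SKMel28 (median -0.02). Of all genes, 51.3% were called in A375 and 70.0% in SKMel28. GNG11 rose in A375 to 68.7 ± 3.75 CPM in resistant cells, against 32.7 ± 0.698 CPM in sensitive cells (edgeR adjusted p = 1.92e-20). GNG4 fell in both lines, to 17.4 ± 1.54 CPM in resistant against 49.9 ± 3.19 CPM in sensitive A375 cells (edgeR adjusted p = 4.8e-22) and to 10.2 ± 0.536 CPM in resistant against 16.1 ± 0.714 CPM in sensitive SKMel28 cells (adjusted p = 3.53e-09). GNG2 rose in SKMel28 to 51.7 ± 2.7 CPM in resistant cells, against 21.6 ± 1.48 CPM in sensitive cells (edgeR adjusted p = 5.4e-20). All 3 encode gamma subunits.

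Of 19 effector genes 12 were tested, and 2 were called higher and 4 lower in resistant A375 (median -0.01), 3 higher and 6 lower in resistant SKMel28 (median -0.27). Of all genes, 51.3% were called in A375 and 70.0% in SKMel28. PLCB1, a phospholipase C activated by Gq, fell in A375 to 0.587 ± 0.0984 CPM in resistant cells, against 6.5 ± 0.559 CPM in sensitive cells (edgeR adjusted p = 1.27e-21). Its relative PLCB4 rose there to 26.9 ± 0.987 CPM in resistant cells, against 16.8 ± 0.292 CPM in sensitive cells (edgeR adjusted p = 5.07e-11). PREX1, a Rac exchange factor activated by beta-gamma subunits, fell in SKMel28 to 15.3 ± 0.497 CPM in resistant cells, against 90 ± 1.93 CPM in sensitive cells (edgeR adjusted p = 4.1e-36). ADCY6, an adenylyl cyclase inhibited by Gi, rose in SKMel28 to 60.7 ± 3.1 CPM in resistant cells, against 39.8 ± 1.58 CPM in sensitive cells (edgeR adjusted p = 5.54e-14).

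Of 47 listed receptor symbols 34 were tested, and 11 were called higher and 11 lower in resistant A375 (median 0.04), 11 higher and 13 lower in resistant SKMel28 (median 0.21). Of all genes, 51.3% were called in A375 and 70.0% in SKMel28. Without A375 resistant replicate 1, 7 in place of 11 were called lower in A375. The endothelin receptor EDNRA rose in A375 to 16.5 ± 0.063 CPM in resistant cells, against 3.48 ± 0.12 CPM in sensitive cells (edgeR adjusted p = 3.02e-17). The sphingosine-1-phosphate receptor S1PR2 fell in A375 to 2.58 ± 0.543 CPM in resistant cells, against 7.95 ± 0.564 CPM in sensitive cells (edgeR adjusted p = 4e-14). The serotonin receptor HTR2B rose in SKMel28 to 525 ± 10.1 CPM in resistant cells, against 59.3 ± 0.909 CPM in sensitive cells (edgeR adjusted p = 2.89e-39). MC1R, the melanocortin receptor that drives pigment synthesis, fell in SKMel28 to 38.4 ± 1.26 CPM in resistant cells, against 196 ± 5.77 CPM in sensitive cells (edgeR adjusted p = 1.16e-35).

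Of 18 listed symbols for proteins with an RGS-homology domain outside the RGS family, 14 were tested, and 5 were called higher and 2 lower in resistant A375 (median 0.05), 6 higher and 5 lower in resistant SKMel28 (median 0.04). Of all genes, 51.3% were called in A375 and 70.0% in SKMel28. ADRBK2, a receptor kinase, rose in SKMel28 to 118 ± 7.24 CPM in resistant cells, against 39.5 ± 1.13 CPM in sensitive cells (edgeR adjusted p = 5.89e-27). It also rose in A375, to 3.93 ± 0.379 CPM in resistant cells, against 1.09 ± 0.212 CPM in sensitive cells (edgeR adjusted p = 2.36e-14). AXIN2, a scaffold of the Wnt pathway, fell in SKMel28 to 3.32 ± 0.64 CPM in resistant cells, against 5.66 ± 0.392 CPM in sensitive cells (edgeR adjusted p = 0.00045). The guanine nucleotide exchange factor ARHGEF12 rose in A375 by 0.48 ± 0.04 on the log2 scale (edgeR adjusted p = 1.28e-12), and the sorting nexin SNX13 fell there by 0.21 ± 0.06 (adjusted p = 0.00404). Without A375 resistant replicate 1, SNX13 was not called (edgeR adjusted p = 0.0702) and 0 in place of 2 of these genes were called lower in A375, and without replicate 2 or 3 it was 1 gene.

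Of 11 other regulators of G proteins 10 were tested, and 2 were called higher and 4 lower in resistant A375 (median -0.07), 5 higher and 3 lower in resistant SKMel28 (median 0.17). Of all genes, 51.3% were called in A375 and 70.0% in SKMel28. Without A375 resistant replicate 3, 2 in place of 4 were called lower in A375. CCDC88C, which activates Gi subunits without a receptor, rose in A375 to 6.44 ± 0.541 CPM in resistant cells, against 3.82 ± 0.277 CPM in sensitive cells (edgeR adjusted p = 1.25e-05). It fell in SKMel28 to 3.88 ± 0.38 CPM in resistant cells, against 7.84 ± 0.561 CPM in sensitive cells (edgeR adjusted p = 1.54e-08). GPSM2, which holds Gi subunits in their GDP-bound form, fell in A375 to 15.5 ± 0.88 CPM in resistant cells, against 25.3 ± 0.815 CPM in sensitive cells (edgeR adjusted p = 2.14e-11). RAP1GAP, which inactivates the small GTPase Rap, rose in SKMel28 to 8.13 ± 0.587 CPM in resistant cells, against 3.66 ± 0.524 CPM in sensitive cells (edgeR adjusted p = 6.6e-09).

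**Figure D4:**
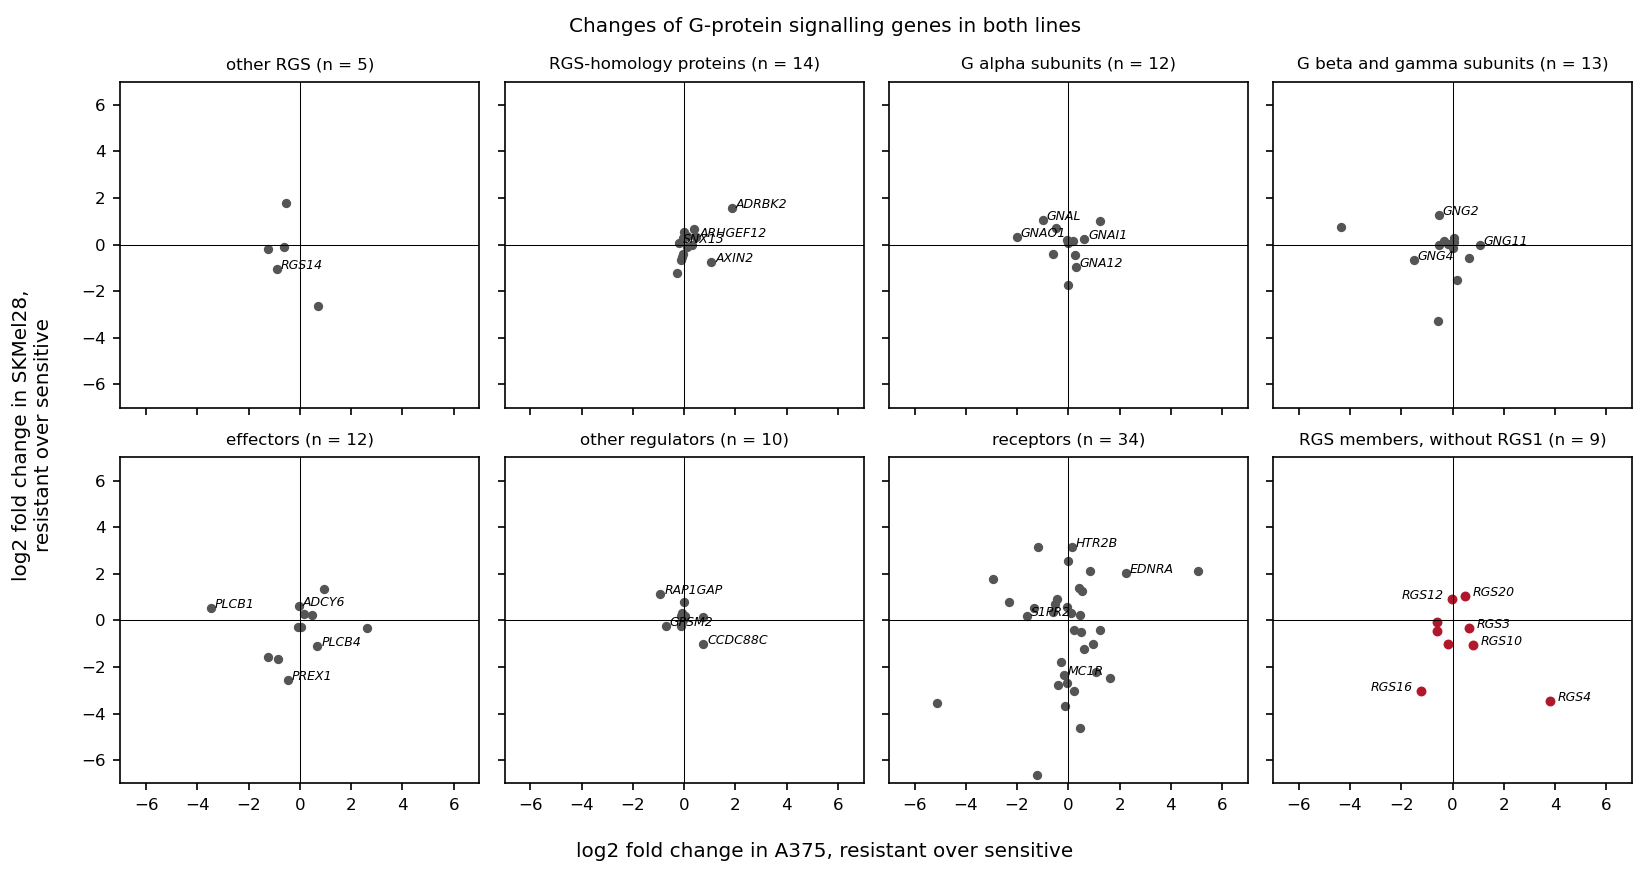
Log2 fold change, resistant over sensitive, in A375 (x axis) against SKMel28 (y axis) for the tested genes of 7 pathway lists and for 9 RGS members, each point a gene, with the genes named by rule labelled. RGS4 stands at 3.82 and -3.48, apart from the other members, and points of the receptor list reach from the lower to the upper quadrants in both lines.

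The profiles most like those of RGS1 and RGS4 were found by Euclidean distance between group means of log2 CPM, each gene centred over the 4 groups. For RGS1, whose range over groups was 8.98 on this scale, these were BST2 at a distance of 1.09, ATP6V0D2 at 1.65 and NPPC at 1.66. BST2, an interferon-induced membrane protein that tethers virus particles, averaged 0.388 CPM in A375 resistant, 0.348 CPM in A375 sensitive, 0.576 CPM in SKMel28 resistant and 110 CPM in SKMel28 sensitive cells. ATP6V0D2, a proton pump subunit, reached 52.1 CPM and NPPC, a natriuretic peptide, 31.5 CPM in SKMel28 sensitive cells. Each of the 3 was below 1 CPM in the other 3 groups, but unlike RGS1 none was at 0 there.

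For RGS4, with a range of 9.58, the most similar were SOX9 at a distance of 0.843, MYH16 at 1.08 and KCNMA1 at 1.1. SOX9, a transcription factor of neural crest and cartilage, averaged 201 CPM in A375 resistant, 28.8 CPM in A375 sensitive, 0.486 CPM in SKMel28 resistant and 1.46 CPM in SKMel28 sensitive cells. KCNMA1, a calcium-activated potassium channel, averaged 197 CPM in A375 resistant, 36.1 CPM in A375 sensitive, 0.529 CPM in SKMel28 resistant and 1.43 CPM in SKMel28 sensitive cells. MYH16 averaged 29.8 CPM in A375 resistant, 5.6 CPM in A375 sensitive, 0 CPM in SKMel28 resistant and 0.122 CPM in SKMel28 sensitive cells. The likeness is over 4 group means and is a description only.

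RGS1, RGS2, RGS4, RGS5 and RGS16 all lie on the long arm of chromosome 1, RGS2 229 kb beyond RGS1 and RGS5 34.3 kb beyond RGS4. RGS2 was the nearest tested gene above RGS1. It had 7.61 ± 0.322 CPM in SKMel28 resistant cells, where RGS1 had no read, against 10.3 ± 0.0482 CPM in SKMel28 sensitive cells. The nearest tested gene below RGS1 was PLA2G4A, the arachidonate-releasing phospholipase, 5586.7 kb away. PLA2G4A fell in SKMel28 to 14.5 ± 0.597 CPM in resistant cells, against 30.7 ± 0.446 CPM in sensitive cells (edgeR adjusted p = 1.3e-14). All 3 tested genes within 500 kb of RGS1, RGS2 included, were called lower in resistant SKMel28. Their median log2 fold change was -0.43, and 35.8% of all genes were called lower there. The 7 tested genes at 2 CPM or more within 5 Mb of RGS1 had SKMel28 log2 fold changes from -0.98 to 0.03. The median of the 7 was -0.29.

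On the lower side of RGS4 the nearest tested gene was C1orf110, 200 kb away. It averaged 0.958 ± 0.0558 CPM in A375 resistant cells and 0.0602 ± 0.0357 CPM in A375 sensitive cells (edgeR adjusted p = 9.49e-07). Its A375 log2 fold change was 3.94 ± 0.62 (SE), beside 3.82 for RGS4. C1orf110 had no read in SKMel28. RGS5, on the other side, did not move with RGS4 in A375 beyond the spread of its libraries. Of the 6 tested genes within 500 kb of RGS4, 3 were called higher and 1 lower in resistant A375, with a median log2 fold change of 0.15, beside 25.0% and 26.3% of all genes.

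Medians over chromosome arms, taken over genes at 2 CPM or more, were set beside the members. The long arm of chromosome 1 had medians of -0.05 in A375 and -0.24 in SKMel28. RGS19 lies on the long arm of chromosome 20, whose median in A375 was -0.36, and 21 of the 24 tested genes within 500 kb of RGS19 were called lower in A375 (median -0.46), beside 26.3% of all genes. RGS20 lies on an arm with a SKMel28 median of 0.39, and RGS3 on one, the long arm of chromosome 9, with a SKMel28 median of -0.37. RGS10, lower in resistant SKMel28, lies on the long arm of chromosome 10, whose median there was 0.34. RGS16 had 5 tested genes within 500 kb, all 5 called lower in resistant A375, with a median of -0.41, beside 26.3% of all genes. The part of these regional shifts in the members' values was not tested.

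**Figure D5:**
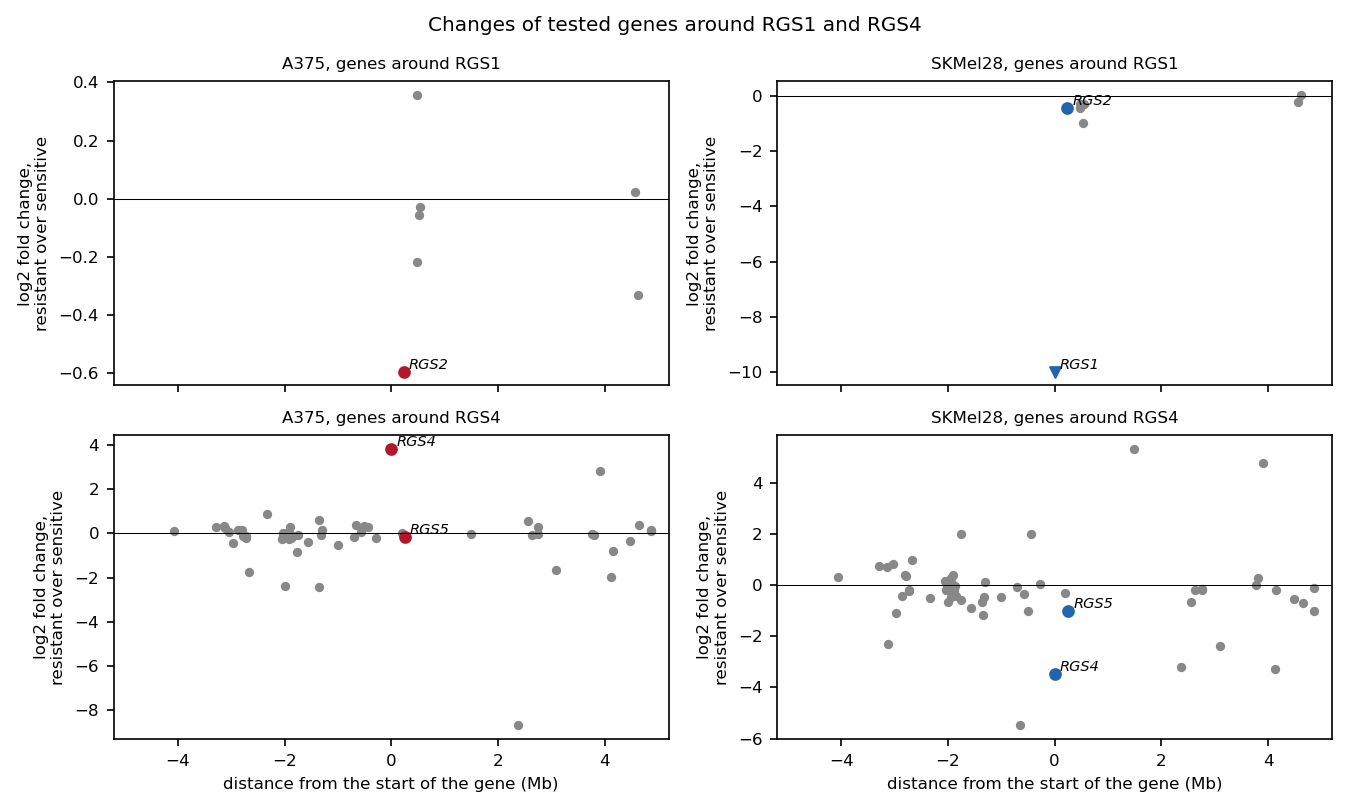
Log2 fold change, resistant over sensitive (y axis, differing in range), of tested genes at 2 CPM or more against their distance from the start of RGS1 (upper panels) or RGS4 (lower panels) in Mb (x axis), in A375 and SKMel28. RGS1 in SKMel28 is a triangle at its bound, while its neighbours there lie between -0.98 and 0.03. RGS4 at 3.82 in A375 stands above all plotted neighbours. C1orf110, at 3.94 in A375, is below 2 CPM and not plotted.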

How the data were processed

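Each library came as whole-number counts of reads per gene symbol, deposited by the authors in 1 file per library with 5 summary lines, which were left out of library sizes (15.1% to 19.5% of counted reads were not assigned). Tools named in the submitters' processing notes are HISAT2 and StringTie, with build GRCh38.p12. The deposited files' names point to STAR and unstranded counting, so the aligner is not settled. Without strand, reads of antisense or overlapping genes cannot be told apart where their exons overlap. NUF2 lies across from RGS5 on the other strand, but their exons do not overlap in GENCODE. Members and lists were chosen with earlier results of these data known. Counts were filtered (filterByExpr, 15506 genes), scaled by TMM and fitted with edgeR 4.0.16 (R 4.3.3) robust quasi-likelihood tests on 4 group means, 8 residual degrees of freedom. Two-sided p-values were Benjamini-Hochberg adjusted over all genes tested and called below 0.05. The SE of a log2 fold change is its absolute value over the square root of the quasi-likelihood F statistic. CPM values use TMM-adjusted library sizes. A floor is 3 reads over a group, and count-ratio intervals are exact at 95%. No library was a copy of another, and same-number libraries of a line had residual correlations of -0.0024 to 0.0471, so replicate numbers did not pair them. Of tested genes, 14527 matched GENCODE by symbol, 476 through another symbol and 503 had no position. Exon length is the union of a gene's exons. From each of 7 pathway lists (142 symbols, 138 in the files), the text names per line the called gene of largest rise and of largest fall at 5 CPM or more in the higher group without overlap, and for RGS1 and RGS4 the 3 nearest profiles (prior count 2) and the nearest tested genes. Alternatives were other scaling (DESeq2 1.42.0 size factors, library size only), no filter, the DESeq2 test, separate fits, a replicate block and each library left out. Steps were tested on simulated counts.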

Additional observations from a re-analysis of the deposited data

Results flagged for a closer look

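The changes of some genes in resistant against sensitive cells differed between the lines. Differences here are the A375 log2 fold change minus the SKMel28 one. For 3 members every resistant library lay above every sensitive one in A375 and below it in SKMel28, and for them the difference was not tested, since they were chosen with these contrasts known. It was 7.30 for RGS4, 1.89 for RGS10 and 0.98 for RGS3.

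Outside the members, the genes below were called in the interaction test of edgeR (adjusted p at most 0.0403). Of 36 genes read in it, 29 were called and 7 were not, and 63.8% of all 15506 genes tested were called. All 36 were named for a large change within a line, as a neighbour of RGS1 or RGS4, or after their values were seen. Their number therefore says nothing about the lists. Among G alpha genes the difference was -2.31 for GNAO1, -2.05 for GNAL, -1.20 for GNAS, 1.25 for GNA12 and 0.39 for GNAI1. Among gamma subunits it was 1.09 for GNG11, -0.86 for GNG4 and -1.79 for GNG2. Among effectors it was -3.98 for PLCB1, 1.78 for PLCB4, -0.66 for ADCY6 and 2.09 for PREX1. Among receptors it was -1.78 for S1PR2, -3.01 for HTR2B, 2.18 for MC1R, 4.11 for LPAR1, 2.01 for LPAR2, 3.29 for LPAR3, 5.04 for LPAR5 and -1.24 for LPAR6. For LPAR5 the difference had an SE of 1.73, with SKMel28 at 0 CPM in resistant and 0.0889 ± 0.154 CPM in sensitive cells. For HTR2B its SE was 0.72, with A375 at 0.105 ± 0.112 CPM in resistant and 0.0911 ± 0.076 CPM in sensitive cells. Such levels do not fix a change of HTR2B in A375. Among other regulators the difference was 1.76 for CCDC88C, -0.46 for GPSM2 and -2.07 for RAP1GAP. Among proteins with an RGS-homology domain it was 0.15 for ARHGEF12, -0.29 for SNX13 and 1.83 for AXIN2. Among other RGS genes it was -2.33 ± 0.56 (SE) for RGS7 and 3.33 ± 0.57 for RGS17. Both were low in SKMel28. RGS7 was at 0.393 CPM in resistant and 0.111 CPM in sensitive cells, and RGS17 at 0.0827 CPM in resistant and 0.519 CPM in sensitive cells. For PLA2G4A, a neighbour of RGS1, the difference was -0.78.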

How the results depend on the processing

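Counts of members called between the lines kept their value under every left-out library, and with library size as the only scaling 4 in place of 5 were lower in A375 between sensitive cells. No called value changed direction under any alternative. With a library left out, the uncalled A375 log2 fold changes of RGS5 ran from -0.24 to 0.0018 and of RGS12 from -0.06 to 0.06. Replicate numbers did not pair the libraries, and with a replicate block 8077 genes were called in A375 and 10896 in SKMel28, against 7959 and 10854 without it. With DESeq2 size factors the A375 calls were 4440 higher and 3639 lower, against 3882 and 4077 with TMM. With library size as the only scaling the median of all genes shifted by 0.15 between sensitive and 0.21 between resistant cells of the lines on the log2 scale. The count of other RGS genes called lower in A375 was 1 by the DESeq2 test and 1 to 3 with a library left out, and that called higher in SKMel28 was 0 with the line fitted alone. The count of those called lower in SKMel28 was 1 to 2 with a library left out. RGS-homology proteins called lower in A375 numbered 1 with DESeq2 size factors, with no filter and by the DESeq2 test, and 0 to 2 with a library left out. With no filter 4 effectors were called higher in A375. Left-out libraries gave 2 to 4 other regulators and 7 to 10 receptors called lower in A375, and a bound for RGS1 of 657.9 to 1022. RGS4 in SKMel28 was at -2.94 on the log2 scale without SKMel28 resistant replicate 3, against -3.48 with it. The cause of these shifts was not tested, apart from the RGS1 bound, which falls by construction with fewer libraries. Depth limits RGS4 and RGS16 in SKMel28, which rest on 2 and 6 reads in resistant cells.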

Other observations

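Receptors for lysophosphatidic acid, which signal through several G protein families, differed among themselves, and they were chosen after their values were seen. LPAR1, LPAR2 and LPAR3 rose in resistant A375 and fell in resistant SKMel28, and LPAR6 did the reverse. LPAR1 rose in A375 to 47.3 CPM in resistant cells, against 15.3 CPM in sensitive cells (edgeR adjusted p = 3.55e-15), and fell in SKMel28 to 0.513 CPM in resistant cells, against 2.86 CPM in sensitive cells (adjusted p = 4.24e-10). LPAR3 rose in A375 to 14.6 CPM in resistant cells, against 6.88 CPM in sensitive cells (edgeR adjusted p = 2.14e-12), and fell in SKMel28 to 7.4 CPM in resistant cells, against 34.1 CPM in sensitive cells (adjusted p = 5.66e-24). LPAR2 rose in A375 to 4.75 CPM in resistant cells, against 2.39 CPM in sensitive cells (edgeR adjusted p = 1.99e-05), and fell in SKMel28 to 1.62 CPM in resistant cells, against 3.32 CPM in sensitive cells (adjusted p = 2.98e-05). LPAR6 fell in A375 to 3.95 CPM in resistant cells, against 5.73 CPM in sensitive cells (edgeR adjusted p = 0.00222), and rose in SKMel28 to 5.96 CPM in resistant cells, against 3.66 CPM in sensitive cells (adjusted p = 7.77e-05). LPAR4 fell in A375 to 0.337 CPM in resistant cells, against 0.759 CPM in sensitive cells (edgeR adjusted p = 0.0397), and was not called in SKMel28 (adjusted p = 0.157). LPAR5 was not called in A375 (edgeR adjusted p = 0.169). It fell in SKMel28 to 0 CPM in resistant cells, against 0.0889 ± 0.154 CPM in sensitive cells (edgeR adjusted p = 0.0174). The libraries overlapped, and these SKMel28 levels are near the floor. GNAS, the Gs subunit gene, was also chosen after its values were seen. It fell in A375 to 533 CPM in resistant cells, against 750 CPM in sensitive cells (edgeR adjusted p = 7.66e-16), and rose in SKMel28 to 1567 CPM in resistant cells, against 960 CPM in sensitive cells (adjusted p = 8.38e-22).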
